A study of Solanum lycopersicum with 39 samples.

Results

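The genes examined were 9 tomato genes for enzymes that remove hydrogen peroxide, namely 6 ascorbate peroxidases and 3 catalases. The ascorbate peroxidases were Solyc06g005150, Solyc06g005160, Solyc09g007270, Solyc06g060260, Solyc01g111510 and Solyc11g018550, and the catalases were Solyc12g094620, Solyc02g082760 and Solyc04g082460. They were chosen by family, not by their response, and were matched by gene ID without the version suffix. All 9 were found among the 34075 genes of both expression tables, and all 9 passed the filter on low values in both. The study names Solyc09g007270 APX-2, and the other 8 genes are called by their IDs here. The sources used here give no compartment, genome position or sequence for these genes, so isoforms were compared and compartments were not.

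Leaves of tomato (Solanum lycopersicum) cultivar M82, which is sensitive to heat and to drought, were measured by RNA-seq in 39 libraries with 3 per group. The labels give 38 days as the plant age for both series, with no separate age for later times. The study's methods give a younger age for the heat series. The heat series held 18 libraries: 0 h at 25 °C and 70% humidity, heat of 42 °C at 90% humidity for 2 h, 4 h, 12 h or 24 h, and recovery of 1 d under the 0 h conditions after 24 h of heat. The drought series held 21 libraries: 0 d, sampled when the pots had reached a set weight after watering stopped, then 1 d, 2 d, 3 d, 4 d and 5 d further without water, and re-watered plants 1 d after watering resumed, all at 25 °C and 70% humidity. All plants were unmodified M82, a single genotype. Heat came with higher humidity, so their effects cannot be told apart, and no group of untreated plants was sampled at the later times. No clock time of sampling is known from the sources used here. At 2 h, 4 h and 12 h, time of day and length of heat thus cannot be told apart either. The 24 h, recovery and drought groups would share the hour of 0 h or 0 d if each series began at a single hour. That is not stated.

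Ascorbate peroxidases reduce hydrogen peroxide to water with ascorbate as the electron donor, and plant leaves hold forms of the enzyme in the cytosol, in chloroplasts and on peroxisomal membranes. Catalases split hydrogen peroxide without a reductant in peroxisomes, where the photorespiratory enzyme glycolate oxidase releases it in the light. In Arabidopsis, different catalase genes peak at different times of day, and a cytosolic ascorbate peroxidase gene is a known target of heat shock transcription factors.

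Values are FPKM, fragments scaled by transcript length and by mapped fragments of the library, so levels are per length and can be set beside each other between genes of a library. Fold changes are differences of mean log2(FPKM + 1), a scale that understates the change of low genes such as APX-2. A gene was called changed where its adjusted p did not exceed 0.05 and its log2 fold change reached 1 or more in either direction, by limma with Benjamini-Hochberg adjustment over all tested genes. The study's methods call the heat libraries biological replicates, without saying how many plants made up each, and the sources used here say nothing of the kind for the drought libraries. The limma p-values set a difference of groups against the spread between these libraries, pooled over all groups of a table and moderated across genes. In bulk leaf RNA, fewer cells of a type and less RNA per cell cannot be told apart.

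Summed FPKM ran between 559548 and 895476 in the heat libraries and between 694973 and 815091 in the drought libraries. Correlations between libraries of a group were lowest at 12 h of heat (r = 0.889), and no 2 libraries were identical. Read depth could not be recovered for all libraries, and the second library of 3 d of drought listed 13889 genes at 0. The median of all tested genes moved by -0.21, -0.43, -0.17, -0.55 and -0.53 on the log2 scale over 2 h, 4 h, 12 h and 24 h of heat and recovery, each against 0 h. In drought it moved by 0.07, 0.13, 0.17, 0.23 and 0.16 at 1 d to 5 d and by 0.05 after re-watering, against 0 d. All 22 light-harvesting antenna genes used as leaf markers were above 0 at 0 h and 0 d, with sums of 39020 to 59580 FPKM at 0 h and 31170 to 38190 FPKM at 0 d.

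Before stress, a catalase was the most abundant member in each series, though not the same one. At 0 h the mean levels ran Solyc02g082760 (1029 FPKM), Solyc06g005160 (453 FPKM), Solyc12g094620 (381 FPKM), Solyc01g111510 (273 FPKM), Solyc06g005150 (69.2 FPKM), Solyc11g018550 (37.0 FPKM), Solyc06g060260 (24.5 FPKM), Solyc04g082460 (2.00 FPKM) and APX-2 (1.43 FPKM). Only Solyc06g005160 and Solyc12g094620 overlapped as neighbours in that order. At 0 d the leading genes were Solyc12g094620 (1335 FPKM), Solyc06g005160 (546 FPKM) and Solyc02g082760 (438 FPKM). The 0 h and 0 d leaves come from separate tables, taken as scaled on their own, so their levels were not compared by a test.

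Among the 9 members, APX-2 had the largest log2 fold change in heat. It stood at 1.40, 1.44 and 1.46 FPKM at 0 h, 295, 321 and 343 FPKM at 2 h, 58.7, 83.3 and 77.4 FPKM at 4 h, 26.5, 7.33 and 36.5 FPKM at 12 h, 239.6, 199.8 and 237 FPKM at 24 h, and 5.46, 3.99 and 1.99 FPKM in recovery. Its level thus had 2 peaks, at 2 h and at 24 h, and no heat group overlapped 0 h. APX-2 rose at 2 h (log2 fold change 7.04 ± 0.40 SE, adjusted p = 1.03e-08 by limma), with a ratio of mean FPKM of 223. The log2 fold changes of 4.92 at 4 h, 3.08 at 12 h and 6.54 at 24 h also passed, with limma adjusted p of 1.84e-06, 2.98e-05 and 1.5e-08.

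The steps between the peaks of APX-2 passed the test as well, in comparisons where 1.72% (4 h against 2 h), 6.94% (12 h against 4 h) and 21.8% (24 h against 12 h) of all tested genes were called. The gene fell by 2.12 on the log2 scale at 4 h against 2 h (adjusted p = 0.0104 by limma) and by 1.84 at 12 h against 4 h (adjusted p = 0.00792). It then rose by 3.46 at 24 h against 12 h (adjusted p = 2.08e-05). The second library of 12 h was the lowest of its group for APX-2 at 7.33 FPKM, and for the small heat shock protein Solyc08g062437 (200.4, 19.7 and 237 FPKM in libraries 1 to 3), HSP90 (211, 79.2 and 183 FPKM) and HSP70-1 (54.0, 17.9 and 45.5 FPKM). Without that library the 12 h value of APX-2 against 0 h was 3.72 on the log2 scale, and without the third library of 12 h it was 2.64, with no call lost over the 6 libraries left out in turn. In recovery APX-2 fell by 5.62 against 24 h (adjusted p = 1.17e-07), and its log2 fold change against 0 h was 0.91 (adjusted p = 0.0808). That last difference was called when the libraries were rescaled by median ratios (1.33, adjusted p = 0.0386), with a pseudocount of 0.1 (1.24, adjusted p = 0.0373) and without the third library of recovery (1.22, adjusted p = 0.0496), over an adjusted p range of 0.0323 to 0.251.

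APX-2 also rose in drought. It had 0.173, 0.810 and 0.282 FPKM at 0 d, 4.55, 4.07 and 7.76 FPKM at 1 d, 18.5, 17.5 and 8.45 FPKM at 2 d, 21.2, 15.2 and 21.1 FPKM at 3 d, 16.1, 14.8 and 14.7 FPKM at 4 d, 32.5, 11.0 and 48.7 FPKM at 5 d, and 3.35, 2.60 and 2.49 FPKM after re-watering. Every drought library and every re-watered library stood above all 0 d libraries, and the 5 d libraries were spread the widest. The log2 fold change against 0 d was 2.17 ± 0.38 (SE) at 1 d, 3.43 at 2 d, 3.84 at 3 d, 3.54 at 4 d and 4.28 at 5 d, with limma adjusted p of 2.32e-04 at 1 d and 4.65e-08 at 5 d. The second library of 5 d, the lowest of its group for APX-2, was also the lowest there for the small heat shock protein (1.48 FPKM). Re-watering lowered APX-2 by 2.84 against 5 d (adjusted p = 5.36e-06), to a level still 1.44 above 0 d (adjusted p = 0.00737).

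**Figure D1:**
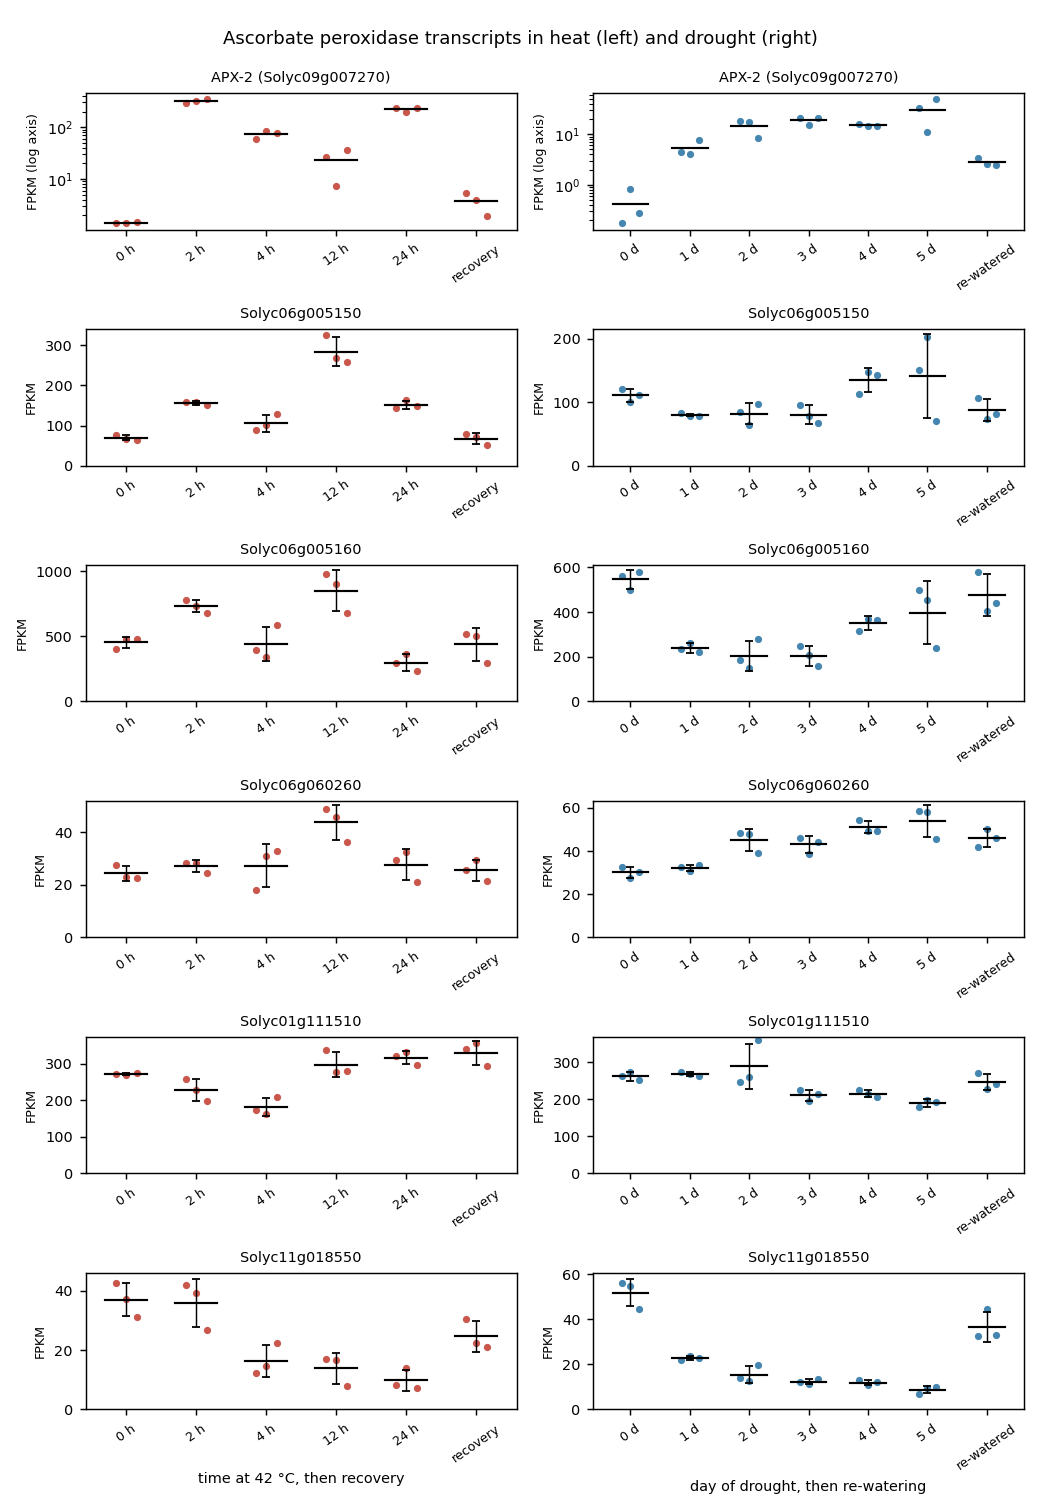
FPKM of the 6 ascorbate peroxidase genes (panels) by hours of heat and recovery and by days of drought and re-watering. Points are libraries, horizontal lines are group means and bars are SD, with APX-2 on a log axis without bars; APX-2 peaked at 2 h and 24 h of heat, and Solyc11g018550 was lowest at 24 h of heat and at 5 d of drought.

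Solyc06g005150 and Solyc06g005160, which carry neighbouring IDs, both lay above 0 h at 2 h and 12 h of heat. At 24 h Solyc06g005150 lay above 0 h and Solyc06g005160 below it, the latter without a call. Solyc06g005150 had 75.9, 67.4 and 64.1 FPKM at 0 h, 159, 158 and 151 FPKM at 2 h, 87.9, 100.3 and 129 FPKM at 4 h, 327, 269 and 258 FPKM at 12 h, 144, 163 and 149 FPKM at 24 h, and 79.2, 71.1 and 51.2 FPKM in recovery. All 4 heat groups lay above 0 h without overlap, the 12 h group highest, and recovery overlapped 0 h. Solyc06g005150 rose at 2 h (1.16 ± 0.20 SE, adjusted p = 0.002 by limma), at 12 h (2.02, adjusted p = 2.2e-06) and at 24 h (1.13, adjusted p = 1.86e-04). At 4 h its log2 fold change of 0.59 stayed under the size threshold (adjusted p = 0.0389) and came to 1.09 after median-ratio scaling, which called it. In recovery it fell by 1.19 against 24 h (adjusted p = 1.94e-04).

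Solyc06g005160, the most abundant ascorbate peroxidase at 0 h and 0 d, had 404, 476 and 478 FPKM at 0 h, 778, 732 and 683 FPKM at 2 h, 396, 344 and 589 FPKM at 4 h, 977, 899 and 675 FPKM at 12 h, 293, 363 and 234 FPKM at 24 h, and 521, 502 and 293 FPKM in recovery. The 2 h and 12 h groups stood above 0 h and the 24 h group below it, with no overlap. None of these passed both thresholds against 0 h: the log2 fold change was 0.69 at 2 h (adjusted p = 0.13 by limma), 0.89 at 12 h (adjusted p = 0.0164) and -0.63 at 24 h (adjusted p = 0.0543), and median-ratio scaling turned the 24 h value to 0.04 and called the 12 h value at 1.10. The 12 h value was also called without the third library of 12 h (1.05, adjusted p = 0.0137, over a range of 8.69e-05 to 0.0621). Between 12 h and 24 h the gene fell by 1.52 (adjusted p = 7.33e-04). The log2 ratio of Solyc06g005150 to Solyc06g005160 within a library was 1.76 higher at 24 h than at 0 h. The groups did not overlap, which was also so for 271 of all 378 ratios and comparisons.

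In drought Solyc06g005160 was called lower at 1 d to 3 d. Solyc06g005160 had 562, 499 and 577 FPKM at 0 d, 232, 262 and 221 FPKM at 1 d, 184, 150.3 and 279 FPKM at 2 d, 246, 207 and 157 FPKM at 3 d, 314, 371 and 366 FPKM at 4 d, 500, 453 and 237 FPKM at 5 d, and 580.2, 406 and 441 FPKM after re-watering. The groups of 1 d to 4 d lay below 0 d without overlap, while 5 d and re-watered overlapped it. It fell by 1.19 ± 0.26 (SE) at 1 d (adjusted p = 0.00117 by limma), by 1.46 at 2 d (adjusted p = 1.14e-04) and by 1.44 at 3 d (adjusted p = 1.08e-04). At 4 d and 5 d its log2 fold changes were -0.64 and -0.53. Solyc06g005150 passed the test at no drought time, with log2 fold changes against 0 d between -0.47 and 0.27. Its groups of 1 d to 3 d also lay below 0 d without overlap, at no more than 82.05, 97.4 and 96.0 FPKM, against at least 99.9 FPKM at 0 d. The log2 ratio of Solyc06g005150 to Solyc06g005160 in a library averaged -1.57 at 1 d, -1.28 at 2 d and -1.32 at 3 d, against -2.29 at 0 d (two-sided exact permutation p = 0.1 each, the smallest possible). Across the 21 drought libraries each of the 2 genes was the member most like the other (r = 0.66). Reads shared between the 2 genes could not be checked without sequence, so their split is uncertain.

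Solyc11g018550 was the only one of the 6 ascorbate peroxidases called lower than 0 h in heat and lower than 0 d in drought. It had 42.5, 37.3 and 31.3 FPKM at 0 h, 41.8, 39.4 and 26.8 FPKM at 2 h, 12.2, 14.6 and 22.4 FPKM at 4 h, 17.0, 16.5 and 7.86 FPKM at 12 h, 8.36, 13.9 and 7.10 FPKM at 24 h, and 30.6, 22.4 and 20.9 FPKM in recovery. The groups of 4 h, 12 h, 24 h and recovery lay below 0 h with no overlap. The gene fell by 1.42 ± 0.31 (SE) at 12 h (adjusted p = 0.00234 by limma) and by 1.86 at 24 h (adjusted p = 1.21e-04), which was 1.31 below the median of all genes at 24 h. In recovery it rose by 1.28 against 24 h (adjusted p = 0.00336). The 4 h decrease (-1.16, adjusted p = 0.0149) was lost after median-ratio scaling, where it was -0.67. It was also lost without the first library of 0 h (-1.06, adjusted p = 0.0537), without the first of 4 h (-0.98, adjusted p = 0.0663) and without the second of 4 h (-1.10, adjusted p = 0.0593), the lowest adjusted p over the alternatives being 0.00358.

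The mean decrease of Solyc11g018550 against 0 d was larger in size on each further day of drought. No step of this gene between successive days was called. Its levels were 56.0, 54.8 and 44.8 FPKM at 0 d, 21.9, 23.7 and 23.02 FPKM at 1 d, 13.9, 12.6 and 19.6 FPKM at 2 d, 12.2, 11.1 and 13.6 FPKM at 3 d, 12.9, 10.7 and 11.9 FPKM at 4 d, 6.90, 9.29 and 10.1 FPKM at 5 d, and 32.5, 44.4 and 33.0 FPKM after re-watering. No group overlapped 0 d, and the 5 d libraries were the lowest. The log2 fold change against 0 d was -1.14 at 1 d, -1.71 at 2 d, -1.99 at 3 d, -2.04 at 4 d and -2.44 ± 0.16 (SE) at 5 d, where the limma adjusted p was 1.71e-09. Re-watering raised it by 1.94 against 5 d (adjusted p = 2.08e-08), to -0.50 against 0 d (adjusted p = 0.0246). The summed light-harvesting genes were also low at 24 h of heat (1533 to 5113 FPKM) and at 5 d (1174 to 5326 FPKM). They stood at 12580 to 34950 FPKM in heat recovery and 28950 to 33680 FPKM after re-watering. All 22 genes were above 0 in each of these groups but 24 h, where 21 were. They did not follow Solyc11g018550 in every group. At 4 h of heat their 23190 to 46370 FPKM overlapped the 39020 to 59580 FPKM of 0 h, while Solyc11g018550 lay below 0 h. Between 4 d and 5 d of drought no departure was clear. The light-harvesting sums averaged 1851 FPKM at 4 d and 2562 FPKM at 5 d. Their 5 d libraries, at 1174 to 5326 FPKM, spread around the 1642 to 2067 FPKM of 4 d. The mean of Solyc11g018550 was 11.8 FPKM at 4 d and 8.77 FPKM at 5 d. The part of the light-harvesting genes in the result was not tested.

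The other 2 ascorbate peroxidases passed both thresholds at no time against 0 h or 0 d. Solyc06g060260 had 48.9, 45.9 and 36.4 FPKM at 12 h of heat, against 27.7, 22.99 and 22.6 FPKM at 0 h, and 58.5, 58.2 and 45.5 FPKM at 5 d of drought, against 32.5, 27.5 and 30.3 FPKM at 0 d. Neither pair of groups overlapped. Its log2 fold change was 0.81 at 12 h of heat (adjusted p = 0.0143 by limma) and 0.82 at 5 d of drought (adjusted p = 8.19e-06), both under the size threshold. Solyc01g111510 had 179, 199.5 and 194 FPKM at 5 d of drought, against 262, 274 and 251 FPKM at 0 d, with a log2 fold change of -0.46 (adjusted p = 0.00326). In heat it had 174, 162 and 209 FPKM at 4 h, against 271, 271 and 276 FPKM at 0 h, with no overlap and a log2 fold change of -0.59 (adjusted p = 0.0257), which was -0.08 after median-ratio scaling. At 24 h it had 322, 332 and 297 FPKM, a difference from 0 h of 0.21 on the log2 scale (adjusted p = 0.322) and of 0.88 after that scaling (adjusted p = 9.94e-04).

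The 3 catalases followed 3 different courses. Solyc02g082760, the most abundant member at 0 h, had 1008, 1082 and 996 FPKM at 0 h, 946, 849 and 630.3 FPKM at 2 h, 347, 424 and 681 FPKM at 4 h, 556, 335 and 339 FPKM at 12 h, 951, 1230 and 549.6 FPKM at 24 h, and 705, 692 and 534 FPKM in recovery. The 2 h, 4 h, 12 h and recovery groups lay below 0 h, while 24 h overlapped it. The gene fell by 1.37 ± 0.32 (SE) at 12 h (adjusted p = 0.0034 by limma). It was higher at 24 h than at 12 h by 1.11 (adjusted p = 0.0147), although the third library of 24 h lay within the 12 h range. Its log2 fold change at 24 h against 0 h was -0.25 (adjusted p = 0.511), and 0.42 after median-ratio scaling. The 4 h decrease (-1.15, adjusted p = 0.0167) was lost after median-ratio scaling (-0.64, adjusted p = 0.059). It was lost as well without the second library of 0 h (-1.11, adjusted p = 0.0575), the first of 4 h (-0.94, adjusted p = 0.0776) or the second of 4 h (-1.08, adjusted p = 0.0639), the lowest adjusted p over the alternatives being 0.00603.

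In drought Solyc02g082760 fell from 2 d on and came back after re-watering. It had 385, 497 and 433 FPKM at 0 d, 379.5, 386 and 326 FPKM at 1 d, 180.5, 187 and 277 FPKM at 2 d, 165, 169 and 235 FPKM at 3 d, 105, 133 and 126 FPKM at 4 d, 112, 168 and 266 FPKM at 5 d, and 477, 578 and 463 FPKM after re-watering. The groups of 2 d to 5 d did not overlap 0 d, while 1 d and re-watered did. The log2 fold change against 0 d was -1.05 at 2 d, -1.22 at 3 d, -1.84 ± 0.24 (SE) at 4 d and -1.34 at 5 d, with limma adjusted p of 0.00134, 3.2e-04, 4.22e-06 and 1.11e-04. The 2 d value dropped under the size threshold without the second library of 0 d (-0.95), the first of 2 d (-0.94) or the second of 2 d (-0.96). Re-watering raised the gene by 1.55 against 5 d (adjusted p = 2.65e-05). The summed light-harvesting genes stood at 1642 to 2067 FPKM at 4 d, against 31170 to 38190 FPKM at 0 d. All 22 were above 0 in both. They stood at 2409 to 4119 FPKM at 12 h of heat, with 21 of 22 above 0. At 24 h of heat, where Solyc02g082760 overlapped 0 h, they stood at 1533 to 5113 FPKM. At 4 h of heat, where the catalase lay below 0 h, their 23190 to 46370 FPKM overlapped the 0 h range. Their part in the decrease of Solyc02g082760 was not tested.

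Solyc12g094620 was called higher and later lower within the heat series. It had 345, 412 and 386 FPKM at 0 h, 483, 243 and 227 FPKM at 2 h, 1399, 1096 and 519 FPKM at 4 h, 533, 822 and 466 FPKM at 12 h, 295, 204 and 69.7 FPKM at 24 h, and 497, 404 and 399.5 FPKM in recovery. The 4 h and 12 h groups lay above 0 h and the 24 h group below it, with a wide spread at 4 h and 24 h. At 4 h it rose by 1.28 ± 0.46 (SE, adjusted p = 0.0481 by limma). At 24 h it fell by 1.23 (adjusted p = 0.0297), and between 12 h and 24 h by 1.86 (adjusted p = 0.00668). At 24 h against 4 h, where 29.2% of all tested genes were called, it was lower by 5.30 times in mean FPKM. In recovery it was higher than at 24 h by 1.41 (adjusted p = 0.0186).

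These calls of Solyc12g094620 depended on the libraries kept and on the settings. The 4 h call was lost without any 1 of 5 of the 6 libraries, with 0.99 (adjusted p = 0.182 by limma) without the first library of 4 h and 1.16 (adjusted p = 0.147) without the second. Leaving out the first, the second or the third library of 0 h gave 1.21, 1.34 and 1.29, with adjusted p of 0.114, 0.0949 and 0.108. The 4 h call was also lost with a pseudocount of 0.1 (1.29, adjusted p = 0.0562) and with no filter on low values (1.28, adjusted p = 0.0723). Its adjusted p over the alternatives ran from 0.0125 to 0.182. The 24 h decrease was -0.63 (adjusted p = 0.203) without the third library of 24 h and -0.56 (adjusted p = 0.305) after median-ratio scaling. It also lost its call without the second or the third library of 0 h (-1.17 and -1.22, adjusted p = 0.0753 and 0.0656) and with only the 2 groups in the fit (adjusted p = 0.0721), over a range from 0.00772 to 0.305. The increase in recovery against 24 h was 0.81 (adjusted p = 0.119) without the third library of 24 h and 1.31 (adjusted p = 0.0593) without the first of recovery, and with only the 2 groups in the fit its adjusted p was 0.0555, over a range from 0.00546 to 0.119.

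In drought Solyc12g094620 was the most abundant member in every group and passed the test at no time. It had 1142, 768 and 2094 FPKM at 0 d, 989, 1010 and 993 FPKM at 1 d, 989, 834 and 962 FPKM at 5 d, and 1541, 974 and 1266 FPKM after re-watering. The 0 d libraries spread wider than those of any other drought group and overlapped all of them. Its log2 fold changes against 0 d ran from -0.40 at 5 d (adjusted p = 0.2 by limma) to 0.05 at 4 d, and the 4 d value was -0.23 after median-ratio scaling.

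Solyc04g082460 was a low catalase, called higher at 24 h of heat and at 1 d to 5 d of drought. In heat it had 1.76, 2.04 and 2.203 FPKM at 0 h, 1.92, 3.19 and 3.13 FPKM at 12 h, 6.28, 7.82 and 6.55 FPKM at 24 h, and 2.16, 2.69 and 1.61 FPKM in recovery. The 24 h libraries stood above all others of the series. The gene rose by 1.39 ± 0.21 (SE) at 24 h (adjusted p = 4.3e-05 by limma) and fell by 1.33 in recovery against 24 h (adjusted p = 1.09e-04). In drought it had 2.67, 3.53 and 2.25 FPKM at 0 d, 8.13, 6.35 and 6.08 FPKM at 1 d, 12.7, 16.4 and 11.8 FPKM at 2 d, 15.7, 16.5 and 10.9 FPKM at 5 d, and 4.06, 2.87 and 3.67 FPKM after re-watering. All drought groups lay above 0 d, and the re-watered group overlapped it. The log2 fold change was 1.05 at 1 d, 1.94 at 2 d, 1.89 at 3 d, 1.63 at 4 d and 2.00 ± 0.18 (SE) at 5 d (adjusted p = 5.73e-08), and re-watering lowered it by 1.75 against 5 d (adjusted p = 2.68e-07). The 1 d value came under the size threshold after median-ratio scaling (0.96), without the third library of 0 d (0.94) and without the first of 1 d (0.93).

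**Figure D2:**
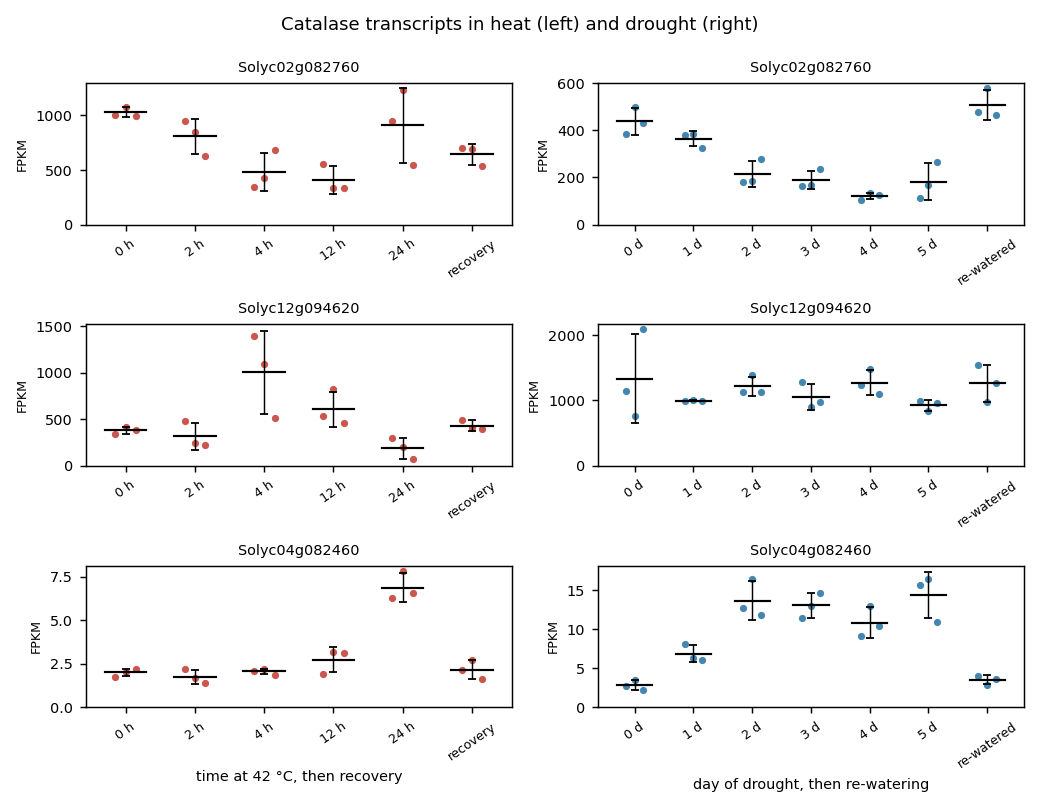
FPKM of the 3 catalase genes (panels) by hours of heat and recovery and by days of drought and re-watering. Points are libraries, horizontal lines are group means and bars are SD; Solyc12g094620 reached 519 to 1399 FPKM at 4 h and 69.7 to 295 FPKM at 24 h of heat, while Solyc02g082760 was lower at 4 h and 12 h.

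Within a family, the share held by each gene shifted. In a library, APX-2 made up 18.9 to 24.1% of the summed ascorbate peroxidase FPKM at 2 h of heat and 18.1 to 25.1% at 24 h, against 0.164 to 0.170% at 0 h. At 5 d of drought its share was 1.18 to 8.03%, against 0.0168 to 0.0847% at 0 d. Solyc06g005160 held a mean of 28.6% at 24 h of heat, against 52.7% at 0 h, and 30.9% at 2 d of drought, against 54.5% at 0 d. These shares are a description, and no test was run on them.

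Among the catalases, Solyc12g094620 had the higher mean share at 4 h and 12 h of heat and Solyc02g082760 at the other heat times. Solyc02g082760 still led in the third library of 4 h (56.7%) and in the first of 12 h (51.0%), and the levels of the 2 genes overlapped at both times. Solyc12g094620 held 43.2 to 80.0% of summed catalase FPKM at 4 h and 11.1 to 23.6% at 24 h, against 25.5 to 27.9% at 0 h. Its mean log2 ratio to Solyc02g082760 within a library was 1.00 at 4 h and -2.41 at 24 h, against -1.43 at 0 h. In drought the same ratio averaged 3.38 at 4 d, against 1.49 at 0 d, and the log2 ratio of Solyc02g082760 to Solyc04g082460 averaged 3.51 at 5 d, against 6.85 at 0 d. None of these groups overlapped, which was also so for 271 of all 378 ratios and comparisons, and the two-sided exact permutation p was 0.1, the smallest that 3 libraries against 3 allow. Over the 378 ratios tested, the smallest adjusted p was 0.14, so no ratio could pass.

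**Figure D3:**
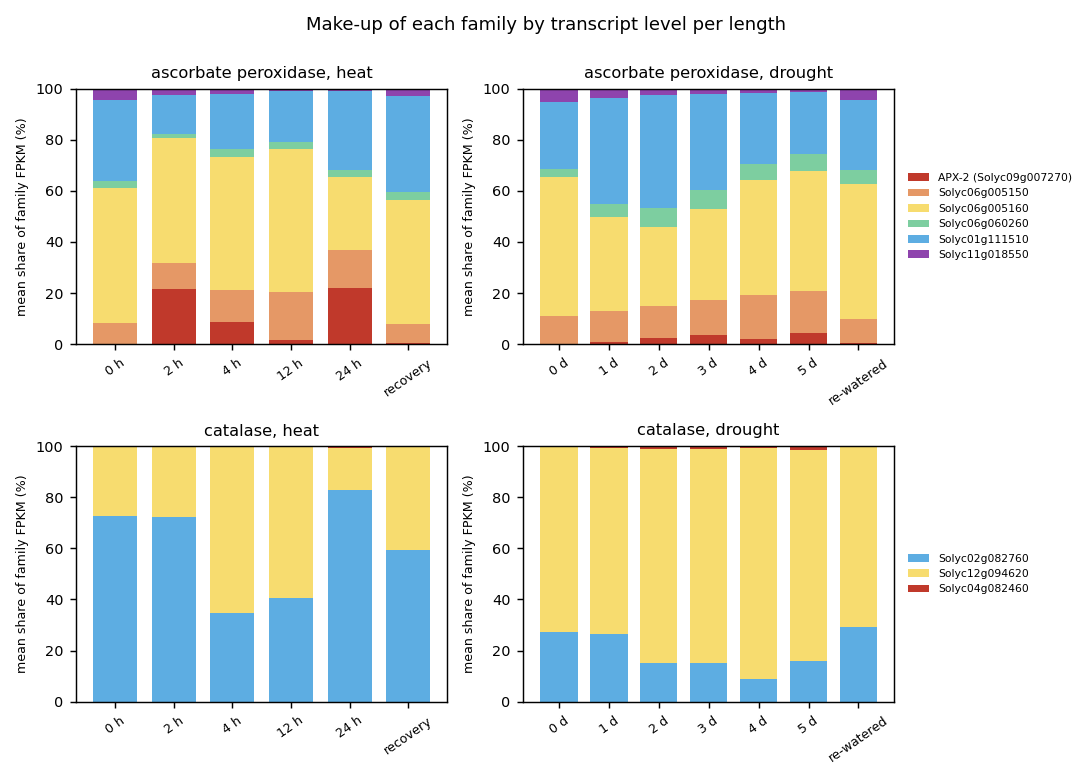
Mean share of the summed FPKM of each family held by each gene (stacked, percent), by group of the heat and drought series, each of 3 libraries. APX-2 takes up 21.4% of ascorbate peroxidase FPKM at 2 h of heat, and Solyc12g094620 takes up 65.1% of catalase FPKM at 4 h.

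Counted over the 9 members, 2 were called at 2 h of heat against 0 h, both higher, where 5.56% of all tested genes were called (2.07% higher, 3.49% lower). At 4 h 4 were called, 2 higher and 2 lower, where 15.5% of all tested genes were (2.47% higher, 13.0% lower), and median-ratio scaling made this 3 higher and 0 lower. The 4 h count was 1 without the first or the second library of 4 h and 2 without the first or the second library of 0 h. At 12 h 4 were called, 2 higher and 2 lower, where 24.2% of all tested genes were (8.42% higher, 15.7% lower), and after scaling 3 higher and 2 lower. At 24 h 5 were called, 3 higher and 2 lower, where 42.4% of all tested genes were (9.31% higher, 33.1% lower), and after scaling 3 higher and 1 lower. So 5 of 9 at 24 h stands near the share over all genes. The median log2 fold change of the members at 24 h was 0.16, against -0.55 for all tested genes.

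In recovery against 0 h limma called 0 of the 9, where 24.6% of all tested genes were called (1.23% higher, 23.3% lower), with 2 at an unadjusted p under 0.05, and after median-ratio scaling it called 1, which was APX-2. Against 24 h, 5 were called in recovery, 2 higher and 3 lower, where 32.4% of all tested genes were (16.0% higher, 16.4% lower). All genes of the table showed 4416 lower and 233 higher calls in recovery against 0 h, and 1455 lower and 1127 higher after scaling. At 24 h against 0 h the same counts were 6264 lower and 1762 higher, and 3722 lower and 3335 higher after scaling.

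In drought against 0 d, limma called 4 members at 1 d, where 15.1% of all tested genes were called (6.79% higher, 8.27% lower), and 5 at 2 d, where 23.9% were (11.0% higher, 12.9% lower). It called 5 at 3 d, where 27.7% of all were (12.9% higher, 14.8% lower), 4 at 4 d, where 29.8% were (14.6% higher, 15.2% lower), and 4 at 5 d, where 31.2% were (13.5% higher, 17.7% lower). At each of these times 2 of the called members were higher. The higher members were APX-2 and Solyc04g082460 at all 5 times. Solyc11g018550 was lower at all 5 times, and the others called lower were Solyc06g005160 at 1 d to 3 d and Solyc02g082760 at 2 d to 5 d. After re-watering 1 member, APX-2, was called against 0 d, where 11.7% of all tested genes were (5.25% higher, 6.41% lower). Against 5 d 4 were called, 2 higher and 2 lower, where 30.0% of all were (17.4% higher, 12.6% lower). Between successive days, 1 member was called at 2 d against 1 d, where 2.23% of all genes were. It was APX-2, at 1.26 (adjusted p = 0.0422), and it lost its call after median-ratio scaling (1.18, adjusted p = 0.0565). For 3 d against 2 d, 4 d against 3 d and 5 d against 4 d limma called 0 members, with 1, 4 and 1 at an unadjusted p under 0.05, where 0.0902%, 0.0200% and 1.36% of all tested genes were called. Comparisons against 0 d share the 0 d libraries, and those in heat share the 0 h libraries.

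**Figure D4:**
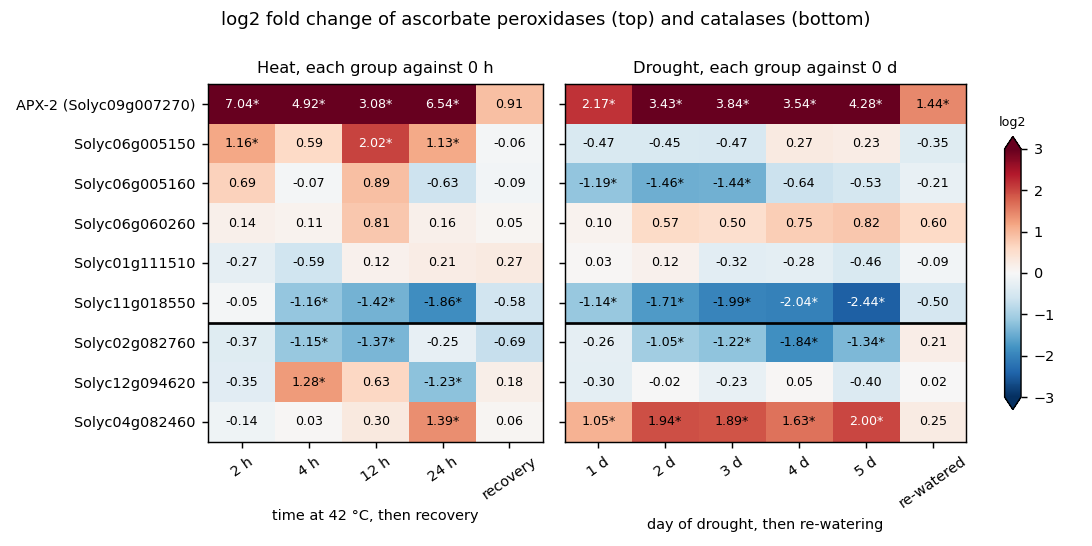
Difference of mean log2(FPKM + 1) for each of the 9 members (rows) in 5 heat comparisons against 0 h and 6 drought comparisons against 0 d (columns), 3 libraries per group, with colour capped at 3 in size. An asterisk marks a called change; median-ratio scaling removes the marks of Solyc11g018550 and Solyc02g082760 at 4 h, Solyc12g094620 at 24 h and Solyc04g082460 at 1 d, and it adds marks for Solyc06g005150 at 4 h, Solyc06g005160 at 12 h and APX-2 in recovery.

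Other genes of peroxide production and use, taken from those the study names, moved in their own ways. Of 8 listed, 7 passed the filter in heat and 6 in drought. Glycolate oxidase (Solyc10g007600), which releases hydrogen peroxide in peroxisomes, averaged 18.2 ± 6.50 FPKM at 24 h of heat and 467 ± 27.1 FPKM at 0 h (SD, n = 3 each), and it fell by 4.67 on the log2 scale (adjusted p = 5.66e-07 by limma). At 5 d of drought it averaged 21.4 ± 20.9 FPKM and at 0 d 223 ± 36.9 FPKM (SD, n = 3 each), and it fell by 3.70 (adjusted p = 8.9e-07). It rose again by 2.49 in heat recovery against 24 h and by 2.84 after re-watering against 5 d.

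SOD2, a superoxide dismutase, an enzyme that makes hydrogen peroxide from superoxide, rose by 2.02 at 24 h of heat (adjusted p = 2.19e-06 by limma) and was not called at 5 d of drought (-0.16, adjusted p = 0.519). Peroxidase 47, a plant peroxidase by name, fell by 3.20 at 24 h of heat and rose by 1.36 at 5 d of drought. Thioredoxin H4-like rose by 2.72 at 5 d of drought (adjusted p = 2.2e-06), and its value in heat was -0.63 at 24 h (adjusted p = 0.237). POD, a low gene in heat, fell by 1.37 at 24 h (0 to 0.200 FPKM, against 0.887 to 2.87 FPKM at 0 h). At 5 d of drought POD fell by 1.23, with 1.79 to 5.81 FPKM overlapping the 3.56 to 17.0 FPKM of 0 d. Against 0 h, the list had 1 member higher and 3 lower at 24 h of heat, and against 0 d it had 2 higher and 2 lower at 5 d of drought, beside the backgrounds of 42.4% and 31.2% given above. Its median log2 fold change was -0.63 at 24 h of heat, against -0.55 for all tested genes.

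Likeness of pattern was measured as Pearson's r of log2(FPKM + 1) across the 18 heat or 21 drought libraries, among genes the study names (161 in heat, 166 in drought). These libraries share groups, so r is given as a description with no test. In heat APX-2 was most like the small heat shock protein (r = 0.92), Solyc11g018550 like rhodanese-like protein 4 (r = 0.94), and Solyc12g094620 like cytochrome P450 CYP82D47 (r = 0.91). Solyc02g082760 was most like a palmitoyl-monogalactosyldiacylglycerol desaturase (r = 0.86) and Solyc04g082460 like SlBBX31 (r = 0.85). The others were Solyc06g005150 with protein LURP-one-related 14-like (r = 0.89), Solyc06g060260 with SAR DEFICIENT 1-like (r = 0.81), Solyc06g005160 with HSF24 (r = 0.78) and Solyc01g111510 with the alpha subunit of electron transfer flavoprotein (r = 0.70).

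In drought the closest named genes were different ones. Solyc11g018550 was most like DRT100 (r = 0.98), Solyc02g082760 like the light-harvesting gene LHCa4 (r = 0.97), and both APX-2 (r = 0.91) and Solyc04g082460 (r = 0.93) like the electron transfer flavoprotein subunit. Solyc06g060260 was most like thioredoxin H4-like (r = 0.84), and Solyc12g094620 had the weakest best match, POD (r = 0.57). Among the members themselves, APX-2 and Solyc04g082460 had r = 0.89, and Solyc02g082760 and Solyc11g018550 had r = 0.88.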

How the data were processed

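Leaf RNA-seq of 18 heat and 21 drought libraries was used as 2 tables of FPKM per gene that the authors deposited. Trimmomatic, TopHat and Cuffdiff are the tools in the submitters' processing notes. A count model was left out, since FPKM are no counts and read depths could not be recovered for all libraries. Columns were matched to samples by name, and the 3 columns of 0 d, whose numbers are not tied to samples, were used as a group.

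A gene was kept where 3 or more libraries of its table held 1 FPKM or more (18923 in heat, 19963 in drought). log2(FPKM + 1) was fitted with limma 3.58.1 in R 4.3.3 (1 fit per table over all its groups, empirical Bayes with a trend), with Benjamini-Hochberg adjustment in each comparison and the thresholds of the study. Scripts were tested on simulated data. Python 3.11.15, pandas 2.3.3, numpy 2.4.6 and matplotlib 3.10.9 were used for summaries.

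All 9 members were named, with 8 genes of peroxide turnover and 6 heat and clock genes from the study's named genes, and for likeness the gene of highest r. Members and lists were chosen with earlier results of these data known. The alternatives were a pseudocount of 0.1, no filter, median-ratio scaling, only the 2 groups in the fit, a replicate block, no minimum fold change, ratios of mean FPKM, each library left out and doubted libraries left out. Genome positions and sequences were not used here.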

Additional observations from a re-analysis of the deposited data

Results flagged for a closer look

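Solyc12g094620, a catalase, was called in opposite directions at 2 times of the heat series. It had 295, 204 and 69.7 FPKM at 24 h, against 1399, 1096 and 519 FPKM at 4 h, with no overlap. It was lower by a log2 fold change of -2.51 ± 0.46 (SE) at 24 h against 4 h (adjusted p = 4.63e-04 by limma), where 29.2% of all tested genes were called. This difference is the sum of the 2 opposite changes against 0 h that led to it and comes from the same fit, so it adds no support to them. The third library was the lowest of both groups. Groups of 3 libraries were not tested for single stray libraries.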

How the results depend on the processing

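Of the counts of members called, 4 at 4 h of heat became 1 to 4 with each library left out. The 0 in recovery against 0 h became 1 with a pseudocount of 0.1 or median-ratio scaling and 0 to 1 with each library left out, and the 1 after re-watering against 0 d became 3 with no minimum fold change. Over the single members' values, 1464 kept their direction and call, 31 lost a call, 22 gained one, 47 changed direction and 20, as ratios of mean FPKM, moved beyond the spread. Fitting the replicate number as a replicate block gave 2, 4, 4 and 5 members called at 2 h, 4 h, 12 h and 24 h of heat and changed none of 63 values, and it could not be run against 0 d, whose columns are not tied to sample numbers. The numbers did not pair the libraries (correlations of same-numbered deviations -0.22 to 0.26 in heat, -0.20 to 0.31 in drought). Leaving out the second library of 3 d changed none of 63 values.

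Median-ratio scaling turned the direction of 14 values, none called before or after. They were, in heat against 0 h, Solyc11g018550 (0.20) and Solyc04g082460 (0.033) at 2 h, Solyc06g005160 at 4 h (0.44) and 24 h (0.039), Solyc02g082760 at 24 h (0.42), and in recovery Solyc06g005150 (0.60), Solyc06g005160 (0.58) and Solyc11g018550 (0.071). In drought against 0 d they were Solyc06g060260 (-0.015) and Solyc01g111510 (-0.084) at 1 d, Solyc01g111510 at 2 d (-0.085), Solyc06g005150 (-0.0089) and Solyc12g094620 (-0.23) at 4 d, and Solyc12g094620 after re-watering (-0.040). Ratios of mean FPKM turned Solyc12g094620 at 4 d (-0.067) and after re-watering (-0.083), and leaving out the third libraries of 12 h and 24 h turned Solyc02g082760 at 24 h (0.073). The cause was not tested.

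Leaving out each library turned 19 of 117 values, none of them called. In heat against 0 h the ranges were -0.17 to 0.14 for Solyc11g018550 at 2 h, and at 4 h -0.29 to 0.097 for Solyc06g005160, -0.039 to 0.38 for Solyc06g060260 and -0.030 to 0.078 for Solyc04g082460. They were -0.51 to 0.073 for Solyc02g082760 at 24 h, and in recovery -0.19 to 0.12 for Solyc06g005150, -0.23 to 0.18 for Solyc06g005160, -0.051 to 0.17 for Solyc06g060260 and -0.061 to 0.19 for Solyc04g082460. In recovery against 24 h they were -0.28 to 0.015 for Solyc06g060260 and -1.58e-04 to 0.14 for Solyc01g111510. In drought against 0 d they were, for Solyc12g094620, -0.63 to 0.090 at 1 d, -0.35 to 0.37 at 2 d, -0.56 to 0.16 at 3 d, -0.29 to 0.43 at 4 d and -0.32 to 0.40 after re-watering, for Solyc01g111510 -0.047 to 0.22 at 2 d and for Solyc06g005150 -0.095 to 0.66 at 5 d. Solyc06g005160 after re-watering against 5 d ranged from -0.018 to 0.52, and Solyc06g005150 there was called (-1.01) without the third library of 5 d. Differences between low genes are limited by unknown depth.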

Other observations

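Summed over the 6 genes, ascorbate peroxidase FPKM was 823 to 877 at 0 h, 1426 to 1560 at 2 h of heat, 736 to 1060 at 4 h, 1294 to 1734 at 12 h and 945 to 1104 at 24 h. Summed over the 3 genes, catalase FPKM was 1355 to 1496 at 0 h, 858 to 1432 at 2 h, 1202 to 1748 at 4 h, 808 to 1160 at 12 h and 626 to 1442 at 24 h. The ratio of the 2 sums in a library was 0.586 to 0.631 at 0 h, 1.09 to 1.66 at 2 h, 0.427 to 0.882 at 4 h, 1.31 to 1.60 at 12 h, 0.766 to 1.51 at 24 h and 0.730 to 0.898 in recovery. The 4 h range thus held that of 0 h. At 3 d of drought the ascorbate peroxidase sum was 517 to 646 FPKM, against 957 to 1033 FPKM at 0 d.

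Named heat and clock genes moved as well, though not all in the same way. The small heat shock protein Solyc08g062437 was higher than at 0 h on the log2 scale by 8.81 (2 h), 4.13 (4 h), 5.89 (12 h) and 6.98 (24 h) in heat (limma, called each time), and higher than at 0 d by 2.06 at 5 d of drought. HSP90 was called higher at 2 h (2.12), 12 h (1.62) and 24 h (2.91), with -0.22 at 4 h. The clock gene APRR5 rose by 2.99 at 12 h and 2.45 at 24 h of heat and fell by 1.86 at 5 d of drought. The clock gene PCL1 fell by 1.39 at 2 h and by 1.33 at 4 h of heat, the 4 h call being lost after median-ratio scaling at -0.997.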
